A study of Mus musculus with 8 samples.

Results

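Accessible chromatin of FLK1 single-positive cells was compared between embryonic stem cells in which Etv2 was induced and wild-type cells. FLK1, encoded by Kdr, is the VEGF receptor of mesoderm that can form vessels and blood, and PDGFRalpha, encoded by Pdgfra, is a receptor of paraxial and cardiac mesoderm. All cells came from day 4 embryoid bodies, which are aggregates of differentiating mouse stem cells, and 50000 sorted live cells per library went through Omni-ATAC, in which Tn5 transposase inserts sequencing adapters into open chromatin, before sequencing as 75 bp paired ends. The rule took every region of the deposited table with a mean of at least 10 normalized reads over all 8 libraries of the series, which kept 167573 of 168842 regions (99.2%). Nothing about the contrast entered that choice except through this mean.

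The wild-type single positives (WT SP) were PDGFRalpha-FLK1+ cells of the A2lox.Cre line. The induced single positives (OE SP) were PDGFRalpha-FLK1+ cells of the iETV2 line, whose labels call it Etv2 overexpressing and whose embryoid bodies received doxycycline at 2 µg/ml from day 2.5. Each group had 2 libraries. For context the text also gives the PDGFRalpha+FLK1+ double positives of A2lox.Cre (WT DP) and of an Etv2 knockout line (KO DP), with 2 libraries each. The stem cell line differs between the groups along with induction and doxycycline, so the 3 cannot be told apart. Nothing in the labels gives the libraries of 1 group separate cultures, so p-values measure only how far these samples spread, and that spread may be technical.

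Etv2 is a transcription factor of the ETS family, whose members bind a short GGAA core, and it is required for the endothelial and blood lineages. It acts briefly in early mesoderm, ahead of longer-lived endothelial ETS factors such as Fli1 and Erg. Mesoderm that does not take this course contributes to heart, somites and mesenchyme, whose regulators serve here as comparison lists.

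Reads in regions numbered 17380195 and 17371235 in WT SP against 18818425 and 13124581 in OE SP, and the median region held 27 to 41 reads in these 4 libraries. Across regions the log2 values of the replicates correlated at 0.978 in WT SP and 0.937 in OE SP. The SD of the replicate difference was 0.33 on the log2 scale in WT SP and 0.57 in OE SP, so the induced libraries differed more from each other than the wild-type ones. Values are the deposited normalized reads per region, and all log2 differences are OE SP minus WT SP after 5 is added to each value, so changes of low regions are understated. A region was called when limma's moderated test, adjusted by Benjamini-Hochberg across the 167573 regions, gave p below 0.05. A fit without 1 library leaves 1 in its group, so its calls rest on the spread of the other groups alone.

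Induction went with differences across much of the accessible genome. Of the regions tested, 81307 (48.5%) were called, 27777 (16.6%) higher and 53530 (31.9%) lower in OE SP. The median log2 difference was 1.32 among regions called higher and -1.20 among those called lower. A difference of at least 4-fold was reached by 4927 higher (2.94%) and 7079 lower (4.22%) calls, and one of at least 8-fold by 391 (0.233%) and 594 (0.354%). The balance of directions depended on the scaling: after median-of-ratios rescaling, which took away the -0.22 that was the median over all regions, 39101 regions were called higher and 42482 lower. The values of the groups did not overlap in 43532 regions with OE SP higher (26%) and 77251 with OE SP lower (46.1%). All 27777 regions called higher were called higher under that scaling too, and 42482 (79.4%) of those called lower stayed lower. That rescaling raised OE SP relative to WT SP throughout, so higher calls could hardly be lost. These shares therefore do not compare the stability of the directions.

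The double-positive libraries do not enter the difference, and they give a second range to read the calls against. They do enter the filter and the estimate of spread behind the p-values. A fit of only the 4 libraries compared called 23373 regions higher and 41942 lower. Both OE SP libraries exceeded all 4 double-positive libraries in 26216 of the regions called higher (94.4%), against 27.8% of all regions tested and 82.5% of those in which OE SP lay above WT SP without overlap. Some regions had a mean below 10 over the 6 other libraries and passed the filter only through OE SP. Without them these shares were 92.1%, 23.9% and 78.2%. Both OE SP libraries fell under all 4 double-positive libraries in 42789 of the regions called lower (79.9%), against 35.7% of all tested and 67.4% of those in which OE SP lay below WT SP without overlap. Fewer cells with an open site and less opening per cell cannot be told apart in these bulk libraries.

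Regions called higher had lower medians in all 3 other groups, partly because of the filter. Their median level was 56.1 normalized reads in OE SP, 17.5 in WT SP, 13.3 in WT DP and 12.7 in KO DP. Among the tested regions 8657 passed the filter only through OE SP, as their mean over the 6 other libraries was below 10, and 8296 of these were called higher. Without them 19481 of 158916 regions (12.3%) were called higher, with medians of 72.0 in OE SP, 25.1 in WT SP, 19.3 in WT DP and 18.6 in KO DP. The share with a mean below 20 in each of the 3 other groups was 28.2% of these 19481 (49.6% with the filter-selected regions), so most were not that low in all 3 at once. In WT DP alone 10053 of these 19481 had a mean below 20, and the medians in WT DP and KO DP were below 20. Regions called lower had a median of 16.7 in OE SP, 51.2 in WT SP, 55.2 in WT DP and 53.8 in KO DP, and 21504 (40.2%) had a mean of at least 50 in all 3 other groups, against 30.8% of all tested. Just inside the filter, at a mean of 10 to 10.5, lay 468 regions with a median of 24.6 in OE SP and 5.53 in WT SP; just outside, at 9.5 to 10, lay 384 with 24.3 and 5.04.

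**Figure D1:**
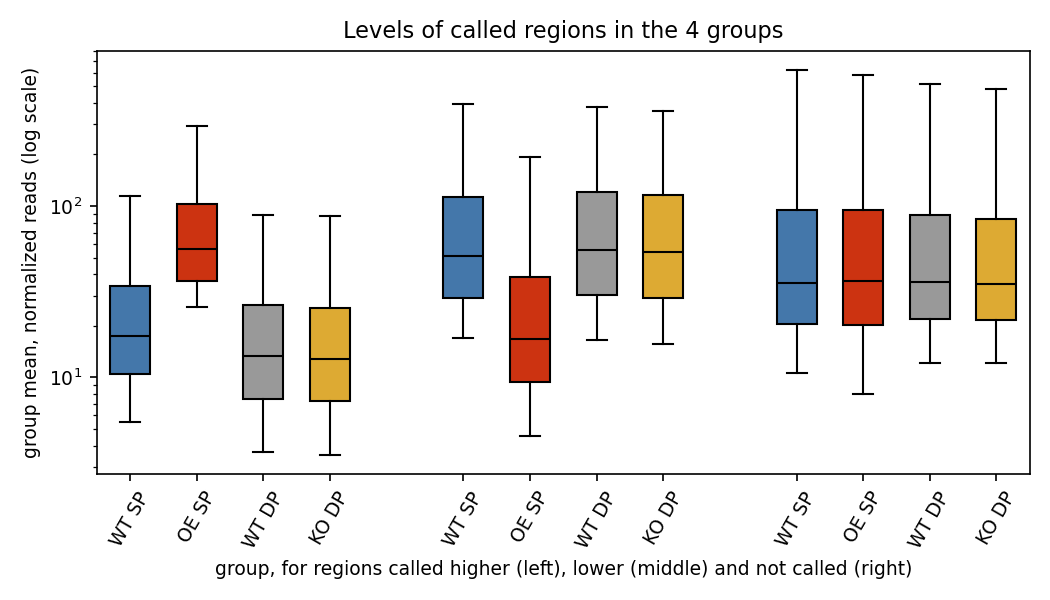
Box plots of group mean normalized reads per region (log scale) in WT SP, OE SP, WT DP and KO DP, for regions called higher, called lower and not called in OE SP against WT SP; lines mark the median, boxes the middle 50% and whiskers the 5th and 95th percentiles. In the left set the OE SP box is raised (median 56.1 against 12.7 to 17.5), and in the middle set the OE SP box is lowered (median 16.7 against 51.2 to 55.2). The left set includes the 8296 regions that passed the filter through OE SP alone.

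Sorted by their level in WT DP, calls were mainly higher at low levels and mainly lower at high ones. WT DP does not enter the difference but enters the filter and the estimate of spread. Pooling for peak calls is not given, so regions low in WT DP may have entered the table through another group. Without the regions that passed the filter only through OE SP, 31873 lay below 20 in WT DP, of which 31.5% were called higher and 15.4% lower (45.3% and 12.1% of 40530 with them). From 100 to 200 the shares were 4.71% higher and 49.8% lower of 17424 regions. Above 500 most regions were not called, with 0.415% higher and 23.3% lower of 6018.

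**Figure D2:**
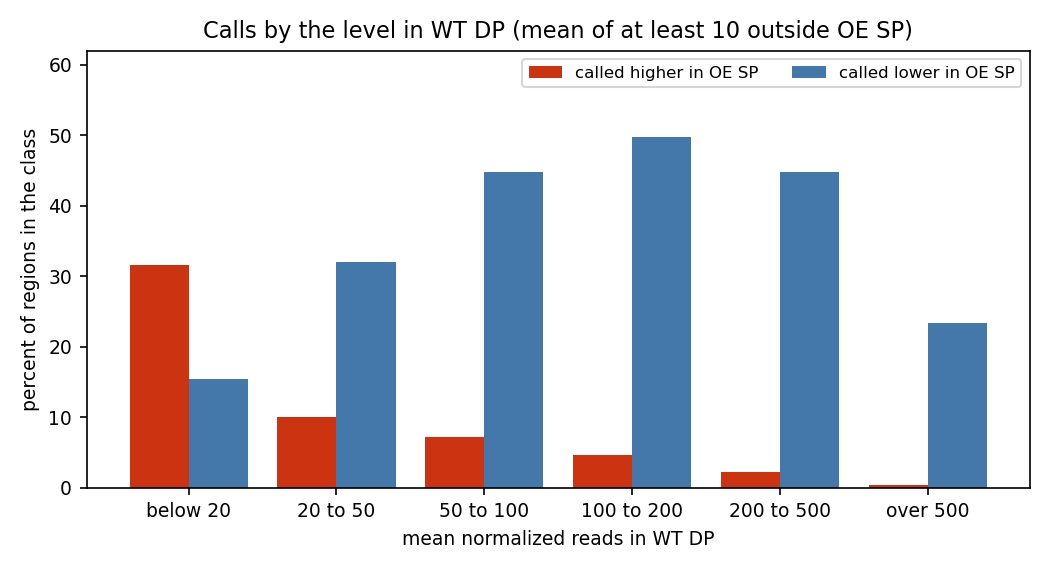
Percent of regions called higher and lower in OE SP (bars) against their mean normalized reads in WT DP, in 6 classes, for the 158916 regions whose 6 libraries outside OE SP average 10 or more. The share called higher falls from 31.5% in the lowest class to 0.415% in the highest, while the share called lower peaks at 49.8% between 100 and 200.

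Calls were sparser at gene ends, which hold the promoters. Regions within 1 kb of either end of a protein-coding gene were called higher in 7.17% and lower in 21.3% of 19396 cases. Inside genes, away from their ends, the shares were 17.4% and 32.8% of 76674, and beyond 100 kb from any protein-coding gene 19.9% and 37.9% of 17737. Gene-end regions were also the strongest, with a median of 239 normalized reads in WT SP against 33.7 inside genes. Among regions with 50 to 200 reads in WT SP, the share called lower was still 28.2% at gene ends, 45.9% inside genes and 62.6% beyond 100 kb, while the share called higher ranged only from 7.35% to 9.21%. Gene-end regions made up 5.00% of higher calls and 7.73% of lower calls, against 11.6% of all tested. These shares were 9.30% and 5.90% after median-of-ratios rescaling, and without OE SP replicate 2 the share among lower calls was 13.8%.

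The promoter sequences show which letters lay under some of the largest gains. Shown are the 250 bases before the RefSeq start (build GRCm38.p6, 5′ to 3′ on the gene's strand) of Gcnt1, Pf4 and Rasgrp3, which belong to the 5 largest rises among the 86 promoters called higher with the ETS-type 7-mer AGGAAGT upstream, and of Egfl7, Tie1 and Tnnt2 from the lists below; they were chosen after their values were seen. Capitals mark AGGAAGT or, on the other strand, ACTTCCT. Tie1 and Tnnt2 have no such match. The shorter GGAA core, on either strand, occurs 7 times in Tie1 and Rasgrp3, 6 times in Gcnt1 and 3 times in Pf4, Egfl7 and Tnnt2.
Gcnt1, chr19:17339506-17339755, minus strand: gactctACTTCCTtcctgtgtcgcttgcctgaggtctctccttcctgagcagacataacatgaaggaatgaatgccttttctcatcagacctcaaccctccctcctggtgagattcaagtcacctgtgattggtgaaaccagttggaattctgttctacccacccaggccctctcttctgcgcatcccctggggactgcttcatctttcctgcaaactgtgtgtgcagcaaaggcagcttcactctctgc
Pf4, chr5:90772185-90772434, plus strand: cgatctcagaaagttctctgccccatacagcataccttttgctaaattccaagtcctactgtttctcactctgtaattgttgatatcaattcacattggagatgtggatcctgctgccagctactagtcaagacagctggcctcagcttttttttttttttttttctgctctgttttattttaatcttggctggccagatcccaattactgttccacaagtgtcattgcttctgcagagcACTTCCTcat
Rasgrp3, chr17:75435655-75435904, plus strand: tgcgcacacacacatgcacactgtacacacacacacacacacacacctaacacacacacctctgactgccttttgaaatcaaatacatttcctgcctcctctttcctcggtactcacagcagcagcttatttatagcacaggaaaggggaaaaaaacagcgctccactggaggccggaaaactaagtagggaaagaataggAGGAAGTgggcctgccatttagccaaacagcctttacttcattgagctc
Egfl7, chr2:26583615-26583864, plus strand: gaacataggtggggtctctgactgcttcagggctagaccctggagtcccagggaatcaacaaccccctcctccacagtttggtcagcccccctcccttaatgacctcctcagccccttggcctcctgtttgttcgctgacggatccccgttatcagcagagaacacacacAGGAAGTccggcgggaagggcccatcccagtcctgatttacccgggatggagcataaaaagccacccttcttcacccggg
Tie1, chr4:118489850-118490099, minus strand: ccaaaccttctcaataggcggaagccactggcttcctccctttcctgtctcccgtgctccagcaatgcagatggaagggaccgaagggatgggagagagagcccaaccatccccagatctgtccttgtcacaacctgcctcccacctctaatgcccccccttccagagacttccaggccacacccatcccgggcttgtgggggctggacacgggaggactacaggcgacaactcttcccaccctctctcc
Tnnt2, chr1:135836084-135836333, plus strand: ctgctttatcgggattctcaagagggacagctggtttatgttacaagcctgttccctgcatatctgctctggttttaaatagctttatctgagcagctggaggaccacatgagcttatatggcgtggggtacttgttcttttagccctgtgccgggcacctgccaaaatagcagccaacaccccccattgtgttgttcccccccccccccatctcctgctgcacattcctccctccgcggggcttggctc

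Gcnt1 encodes a glycosyltransferase that builds branched O-glycans. Its promoter region measured 16.3 and 10.9 normalized reads in the WT SP libraries and 186 and 183 in the OE SP libraries, a log2 difference of 3.36 (SE 0.32, limma adjusted p = 1.38e-05). The 7-mer begins 244 bases before the start. Pf4 encodes platelet factor 4, a chemokine of megakaryocytes, and its promoter region measured 20.4 and 21.8 in the WT SP libraries and 140 and 248 in OE SP, with the 7-mer 10 bases before the start (difference 2.88, SE 0.28, limma adjusted p = 1.48e-05). Rasgrp3, an exchange factor for RAS proteins found in endothelial cells, went from 21.4 and 15.9 to 115 and 222 with a match 49 bases before the start (difference 2.81, SE 0.32, limma adjusted p = 3.39e-05). In all 3 promoters both OE SP libraries lay above all 6 others, which follows in part from their choice among the largest rises. The Gcnt1 region had a mean below 10 over those 6 libraries, so it passed the filter only through OE SP.

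Over all promoters, AGGAAGT was more frequent under regions that were higher. A tested region covered at least 150 bp of the 300-base promoter window (250 before to 50 after the start) in 9085 cases, of which 419 were called higher, 1386 lower and 7280 not called. On either strand, AGGAAGT was present in 107 of the 419 (25.5%), 65 of the 1386 (4.69%) and 8.15% of those not called, against 9.35% of all 32851 promoters of the table. Base composition also differed: median GC was 53.7% in promoters called higher, 62.3% in those called lower and 61.7% in those not called. So did the level, with a median in WT SP of 53.8, 337 and 499 normalized reads in the same order. Motif shares were not compared at like levels. Among promoters with GC below 50%, the 7-mer was present in 34.2% of 117 called higher, 7.53% of 93 called lower and 13.5% of those not called. With median-of-ratios rescaling, where more promoters were called higher, the share among them was 13.7%, and without OE SP replicate 1 it was 15.6%.

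The other sequences were counted in the same way. CGGAAGT, an ETS sequence with a CpG, was present in 5.97% of promoters called higher, 4.69% called lower and 14.2% not called. AGATAAG, the GATA sequence, was found in 5.97%, 3.39% and 1.58%. The E-box CAGCTG was found in 23.6%, 18.2% and 15.1%, and CATCTG in 17.4%, 12.3% and 10.5%. GGAATG, the TEAD sequence, was in 16.9%, 12.7% and 11.2%, the T-box sequence AGGTGTGA in 1.67%, 1.59% and 0.742%, and the AP-1 site TGACTCA in 5.97%, 4.62% and 3.27%. The SP/KLF sequence GGGCGGGG was in 12.6% of promoters called higher, 36.2% called lower and 37.6% not called. All were searched on both strands, none contains another, and a match is a description of letters rather than of binding.

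**Figure D3:**
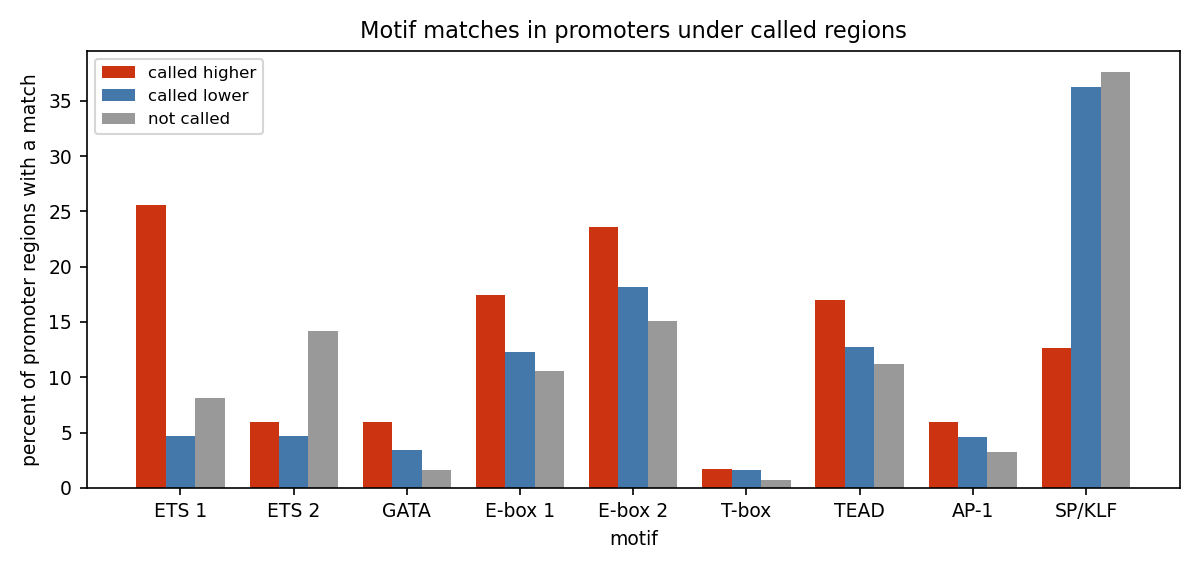
Percent of promoter windows (y axis) that hold each of 9 short motifs on either strand, for 419 promoter regions called higher, 1386 called lower and 7280 not called; ETS 1 is the 7-mer without a CpG, ETS 2 the one with it. The ETS 1 bar of promoters called higher stands at 25.5%, against 4.69% and 8.15%, and the SP/KLF bar is lowest in promoters called higher (12.6%).

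Etv2 itself carried 3 regions, none of which was called with the deposited scaling and all libraries. The region inside the gene at chr7:30634628-30635028 measured 475 and 493 in the WT SP libraries and 425 and 645 in OE SP (log2 difference 0.11, SE 0.21, limma adjusted p = 0.68), and 0.84 and 0 in KO DP. That at the highest coordinate, chr7:30636355-30636755, measured 145 and 148 in the WT SP libraries and 159 and 290 in OE SP (difference 0.54, SE 0.24, limma adjusted p = 0.081). This region was called after median-of-ratios rescaling (difference 0.78), after rescaling on the 10000 highest regions (0.71) or quantile normalization (0.73), and with edgeR (0.83) and DESeq2 (0.84). Its difference was 0.97 without OE SP replicate 1, which leaves 1 library in that group. The region at 30634628 was called with edgeR (0.37), and its difference was 0.41 without OE SP replicate 1. The third measured 94.7 and 89.2 against 75.9 and 63.1. Accessibility of these regions is not a measure of Etv2 RNA, so these values do not check the induction.

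The sort markers had regions called in both directions, as did 68.1% of all genes with at least 5 regions. Kdr had 43 regions within 100 kb, 15 called higher and 17 lower, against shares of 16.6% and 31.9% over all regions tested. A region 61400 bp from the gene (chr5:76040472-76040872) measured 63.1 and 49.6 in the WT SP libraries and 446 and 540 in OE SP, a difference of 3.02 (SE 0.23, limma adjusted p = 5.08e-06), while one 29359 bp away (chr5:76008431-76008831) fell from 524 and 544 to 43.0 and 201. The latter difference, -2.44, was -1.39 without OE SP replicate 1 and -3.49 without replicate 2. Pdgfra had 28 regions, 7 higher and 11 lower. One inside the gene (chr5:75161875-75162275) measured 43.8 and 40.6 in the WT SP libraries and 3.65 and 13.1 in OE SP. Both groups were sorted as FLK1 positive and PDGFRalpha negative.

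Genes for endothelial ETS factors and their partners had a larger share of regions called higher than the 16.6% of all regions. Their 16 genes had 304 tested regions within 100 kb, 99 called higher (32.6%) and 66 lower (21.7%), and the list's median difference lay 0.34 above that of all regions. After median-of-ratios rescaling the counts were 131 and 53; without OE SP replicate 2 they were 89 and 91. More regions were higher than lower in 10 genes, including Elk3 (13 of 25 higher, 1 lower), Tal1 (6 of 8 higher, 1 lower), Sox17 (6 of 11 higher, 1 lower) and Fli1 (13 of 39 higher, 8 lower). Ets1 (9 higher, 15 lower of 41) and Ets2 (3 higher, 11 lower of 27) had more lower calls. Assignment is to the nearest protein-coding gene and does not show which gene a region serves.

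Fli1 encodes an ETS factor of endothelial and blood cells. Its region of lowest p, 38659 bp from the gene at chr9:32582091-32582491, measured 67.2 and 69.4 in the WT SP libraries, 733 and 1106 in OE SP, 10.7 and 9.88 in WT DP and 5.04 and 10.7 in KO DP. The OE SP libraries lay far above all others, by 3.63 on the log2 scale over WT SP (SE 0.26, limma adjusted p = 4.55e-06). Elk3, an ETS factor of the ternary complex group, had a region 24693 bp away (chr10:93335852-93336252) at 40.7 and 23.8 in WT SP against 412 and 615 in OE SP, a difference of 3.81 (SE 0.29, limma adjusted p = 5.12e-06). Etv6, an ETS repressor needed for blood, had an intragenic region (chr6:134189738-134190138) at 124 and 158 in WT SP against 680 and 889 in OE SP. The region of lowest p assigned to Ets1 moved the other way, from 75.3 and 89.2 to 3.65 and 6.57 (chr9:32830354-32830754, 72534 bp from the gene; difference -3.12, SE 0.23, limma adjusted p = 4.53e-06). That region was open in WT DP (74.7 and 72.8) and KO DP (63.0 and 61.8) as well.

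VEGF, TIE and other endothelial receptor genes split by member. Of 263 regions, 82 were called higher (31.2%) and 73 lower (27.8%), or 106 and 62 after median-of-ratios rescaling and 83 and 94 without OE SP replicate 2; the list's median lay 0.24 above all regions. Flt1, the decoy VEGF receptor, had 17 of 42 regions higher and 4 lower, and Flt4, the VEGF-C receptor, 7 of 13 higher and none lower. The neuropilins, co-receptors for VEGF and semaphorins, had more lower calls, with 6 higher and 16 lower of 36 at Nrp1 and 6 higher and 16 lower of 40 at Nrp2.

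At Tie1, an orphan receptor of the angiopoietin system, the promoter region (chr4:118489816-118490216) measured 35.6 and 26.8 in the WT SP libraries and 312 and 461 in OE SP, with 5.82 to 8.98 in WT DP and 5.04 to 7.13 in KO DP. The difference was 3.42 (SE 0.27, limma adjusted p = 5.44e-06), and this promoter, printed above, holds no AGGAAGT but 7 GGAA cores. An intragenic Flt4 region (chr11:49613332-49613732) went from 84.5 and 90.2 to 525 and 595. For Nrp1 the region of lowest p, inside the gene at chr8:128362640-128363040, fell from 584 and 560 to 67.8 and 116, and was high in WT DP (697 and 735) and KO DP (772 and 831).

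Junction and effector genes of endothelium had 87 of 253 regions higher (34.4%) and 66 lower (26.1%), with 107 and 53 after median-of-ratios rescaling and a median 0.35 above all regions. More regions were higher than lower in 9 genes and lower than higher in 5. Cldn5, the tight junction claudin of endothelium, had 9 of 14 higher and 1 lower, Cdh5, encoding VE-cadherin, 13 of 36 higher and 6 lower, and Esam, an adhesion molecule, 3 of 4 higher. The 5 with more lower calls were Tspan18 (7 higher, 14 lower of 32), Pecam1 (3 and 5 of 18), Vwf (6 and 7 of 21), Egfl7 (4 and 5 of 15) and Arhgef15 (1 and 2 of 6). Of these, only Tspan18 kept more lower calls after median-of-ratios rescaling (9 higher, 11 lower). The balance turned at Pecam1 (6 and 4), Vwf (7 and 6), Egfl7 (6 and 4) and Arhgef15 (3 and 2). A region 43325 bp from Cldn5 (chr16:18733122-18733522) measured 63.1 and 60.5 in the WT SP libraries and 533 and 656 in OE SP (difference 3.16, SE 0.22, limma adjusted p = 3.73e-06). The promoter region of Egfl7, a secreted endothelial protein, went from 103 and 81.3 to 433 and 586 (difference 2.40, SE 0.22, limma adjusted p = 1.02e-05). That promoter is printed above with its 7-mer 80 bases before the start. Sema6d, a semaphorin, had 14 regions higher and 14 lower of 38, and its region of lowest p (chr2:124639240-124639640) fell from 208 and 214 to 18.2 and 26.3.

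Arterial Notch genes stood close to the background, with 32 of 178 regions higher, 64 lower (36.0%) and a median 0.04 below all regions; after median-of-ratios rescaling the counts were 41 and 56. Single members differed strongly. An intragenic region of Efnb2, the arterial ephrin (chr8:8623472-8623872), rose from 25.4 and 23.8 to 163 and 173, and a region 2467 bp from Notch4 (chr17:34561419-34561819) from 20.4 and 20.8 to 142 and 146. Heyl and Jag1, a Notch target and a Notch ligand, had mainly lower calls: 6 of 9 and none higher for Heyl, 12 of 20 and 2 higher for Jag1.

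Blood genes were also near the background as a list, with 47 of 213 regions higher (22.1%), 61 lower (28.6%) and a median 0.04 above all regions. The balance turned with the scaling to 65 higher and 54 lower after median-of-ratios rescaling, and to 70 and 64 without OE SP replicate 1, while it was 39 and 94 without OE SP replicate 2. Runx1, the factor required for blood stem cell formation, had 37 of 66 regions lower and 9 higher. Its region of lowest p, inside the gene at chr16:92641168-92641568, fell from 111 and 115 in WT SP to 12.4 and 17.1 in OE SP. Kit, the stem cell factor receptor, had 12 of 26 higher and 4 lower, and Cd34, a surface marker of progenitors and endothelium, 5 of 12 higher and none lower. A region inside Vav1, an exchange factor of blood cells (chr17:57290228-57290628), measured 121 and 80.3 in the WT SP libraries, 698 and 1115 in OE SP, 7.77 and 10.8 in WT DP and 8.40 and 9.51 in KO DP. It differed by 3.10 (SE 0.27, limma adjusted p = 8.00e-06). A region 10619 bp from Cd34 (chr1:194927802-194928202) rose from 59.0 and 81.3 to 480 and 641.

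**Figure D4:**
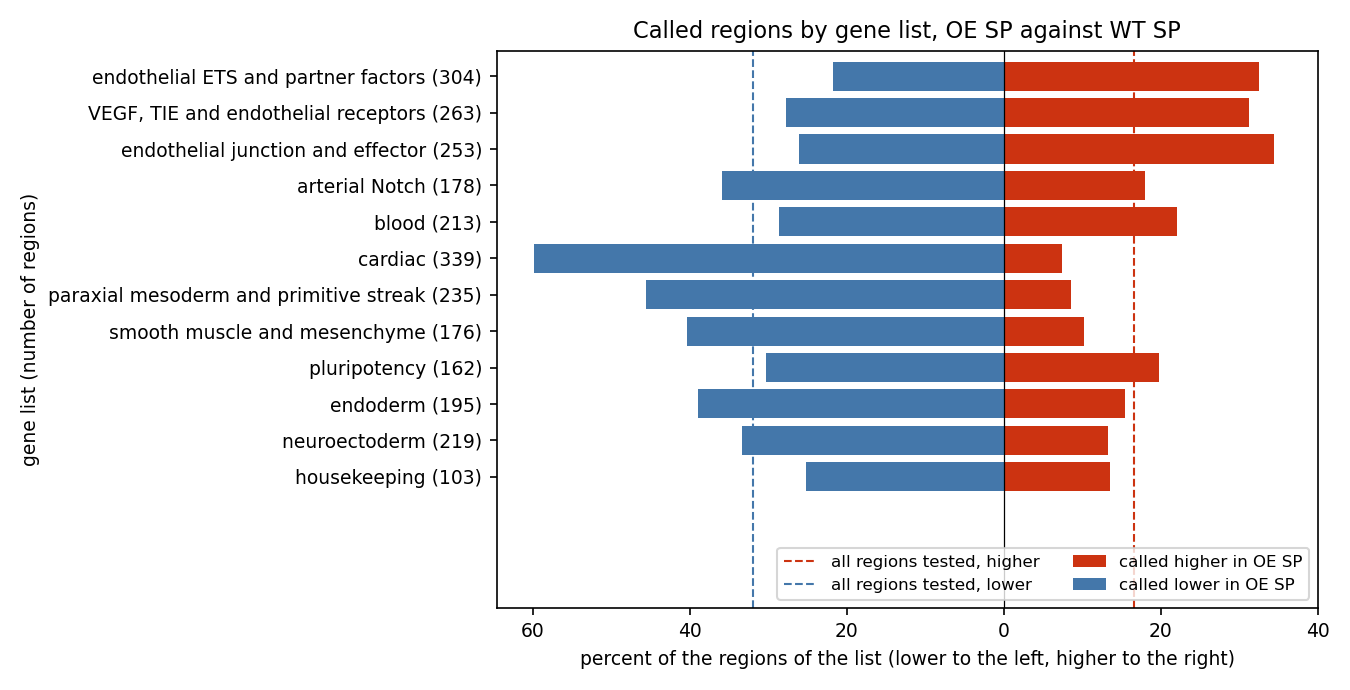
Percent of the tested regions of each of 12 gene lists called higher (right) and lower (left) in OE SP against WT SP, with the number of regions in parentheses and dashed lines at 16.6% and 31.9%, the shares among all regions tested. The 3 endothelial bars pass the dashed line on the right, from 31.2% to 34.4%, and the cardiac bar reaches 59.9% on the left.

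Cardiac genes were mainly lower. Each of the 20 genes of the list had more regions called lower than higher, and after median-of-ratios rescaling all did except Gata6 and Myh7, whose counts were equal. Of 339 regions, 203 were called lower (59.9%) and 25 higher (7.37%), or 165 and 32 after median-of-ratios rescaling, and the median lay 0.58 below that of all regions. Without WT SP replicate 1 the counts were 152 and 15. Tbx20, a T-box factor of the heart, had 22 of 26 regions lower, Gata4, a zinc finger factor of cardiac and endodermal cells, 17 of 26, Hand1 16 of 24 and Tbx5 21 of 37. All 4 regions of Mesp1, an early factor of mesoderm bound for the heart, and all 6 of Myl7, the atrial myosin light chain, were lower.

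Of the regions assigned to a cardiac gene, the one with the largest fall lay 19338 bp from Gata5, at chr2:180354841-180355241. It measured 991 and 940 in WT SP, 625 and 567 in WT DP and 604 and 595 in KO DP, and 19.0 and 127 in OE SP, a difference of -4.11 (SE 0.52, limma adjusted p = 7.16e-05) that was -2.87 without OE SP replicate 1 and -5.34 without replicate 2. Near Gata4, a region 34155 bp away (chr14:63305867-63306267) fell from 343 and 372 to 48.9 and 82.8. Another, assigned to Blk, the B cell kinase gene that neighbours Gata4 in the gene table (chr14:63359296-63359696), measured 1250 and 1294 in the WT SP libraries and 13.1 and 239 in OE SP (difference -4.26, SE 0.77, limma adjusted p = 0.000764; -2.39 without OE SP replicate 1 and -6.14 without replicate 2). Regions assigned to Tbx5 (chr5:119973068-119973468) and to Myocd, a coactivator of muscle genes (chr11:65360394-65360794), fell from 144 and 199 to 9.48 and 19.7 and from 134 and 123 to 14.6 and 10.5.

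**Figure D5:**
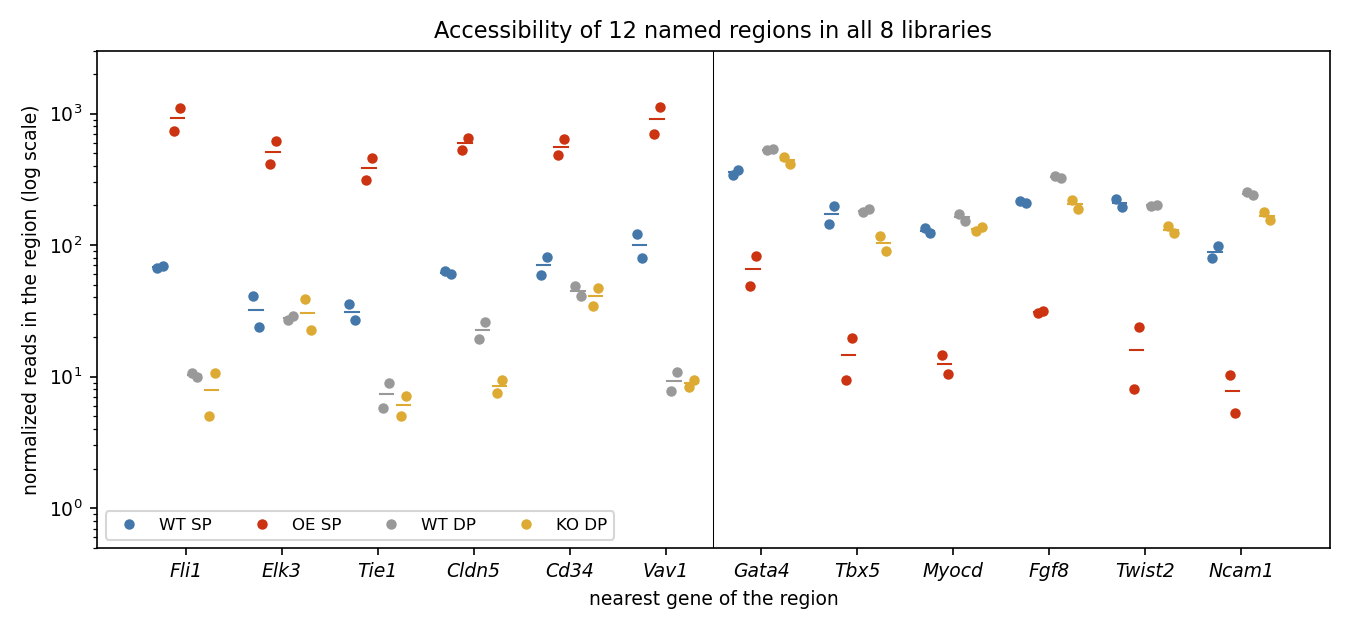
Normalized reads (log scale) of 12 regions, labelled by nearest gene, in each of the 8 libraries (points) with group means (bars): 6 that were higher in OE SP on the left and 6 that were lower on the right. Both OE SP points lie above all others at Fli1 (733 and 1106) and the 5 genes beside it, and below all others at Gata4 (48.9 and 82.8) and the 5 genes beside it.

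Paraxial mesoderm and primitive streak genes had 107 of 235 regions lower (45.5%) and 20 higher (8.51%), with 89 and 29 after median-of-ratios rescaling and a median 0.31 below all regions. Higher calls numbered 12 without WT SP replicate 1 and 13 without WT SP replicate 2. In 17 of the 20 genes lower calls were more numerous. Fgf8, a growth factor of the streak, had 7 of 8 lower, Eomes, a T-box factor of the streak, 13 of 21, and Wnt3a 11 of 20 with none higher. A region 10455 bp from Fgf8 (chr19:45725636-45726036) fell from 215 and 208 to 30.6 and 31.5 (difference -2.58, SE 0.17, limma adjusted p = 3.27e-06). Tcf15, a basic helix-loop-helix factor of somites, was the exception in having more higher calls, 4 of 8, and its region at chr2:152177150-152177550 rose from 45.8 and 53.5 to 216 and 271.

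Among smooth muscle and mesenchyme genes, 71 of 176 regions were lower (40.3%) and 18 higher (10.2%), with a median 0.17 below all regions, and after median-of-ratios rescaling the counts were 61 and 26. Higher calls numbered 11 without WT SP replicate 1 and 8 without WT SP replicate 2. Twist2, a mesenchymal basic helix-loop-helix factor, had 14 of 24 lower and none higher, and an intragenic region (chr1:91830797-91831197) went from 225 and 196 to 8.02 and 23.6. Col1a1, encoding a fibrillar collagen, had 9 of 13 lower and none higher.

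Lists of other cell types that a sort could hold gave these counts. Pluripotency genes had 32 of 162 regions higher (19.8%) and 49 lower (30.2%), turning to 47 and 38 after median-of-ratios rescaling, and their median lay 0.01 above all regions. Endoderm genes had 30 higher (15.4%) and 76 lower (39.0%) of 195 (38 and 61 after that rescaling) and a median 0.24 below all regions, among them 24 of 36 lower at Cxcr4, a chemokine receptor also used by mesoderm, and 13 of 25 lower at Gsc. Neuroectoderm genes had 29 higher (13.2%) and 73 lower (33.3%) of 219 (41 and 54 rescaled) and a median 0.04 below, with 17 higher without either WT SP library and 48 lower without WT SP replicate 2. Housekeeping genes had 14 higher (13.6%) and 26 lower (25.2%) of 103 (21 and 18 rescaled) and a median 0.07 above, with 7 higher without either WT SP library and 42 lower without OE SP replicate 2. The region of lowest p at Cxcr4 (chr1:128560430-128560830) fell from 116 and 104 to 4.38 and 9.20. One assigned to Ncam1, a neural adhesion gene (chr9:49759499-49759899), fell from 79.4 and 98.1 to 10.2 and 5.26, and one assigned to Pax6 (chr2:105608748-105609148) rose from 21.4 and 14.9 to 135 and 142.

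Promoters of list genes were called in both directions. A tested region covered the promoter of 83 list genes, in 86 regions, of which 13 were called higher (15.1%) and 22 lower (25.6%), against 4.61% and 15.3% of all 9085 promoter regions; the members named here were picked after their values were seen. Besides Tie1 and Egfl7, the promoter region of Rasip1, a vascular lumen protein, went from 32.6 and 28.7 to 177 and 397, that of Robo4, an endothelial guidance receptor, from 86.5 and 67.4 to 387 and 438, and that of Erg from 95.7 and 89.2 to 284 and 455. Itga2b, the platelet integrin, rose from 141 and 153 to 333 and 586. On the lower side Tnnt2, cardiac troponin T, went from 173 and 174 to 12.4 and 63.1 (difference -2.38, SE 0.44, limma adjusted p = 0.000827; -1.39 without OE SP replicate 1), and Msgn1, a factor of presomitic mesoderm, from 96.7 and 125 to 25.5 and 26.3. Nkx2-5 went from 222 and 206 to 103 and 93.3. Smaller promoter differences were less stable: those of Tbx20, Wnt11 (chr7:98838717-98839117) and Actn2 were not called after median-of-ratios rescaling.

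None of the 8 largest rises among all regions tested was assigned to a list gene. All 8 of these rises had a mean below 10 over the 6 other libraries, so they passed the filter only through OE SP. Their low values in the other groups follow in part from that. The first, inside Mtbp, the gene of an MDM2-binding protein (chr15:55593341-55593741), measured 9.16 and 9.91 in the WT SP libraries, 451 and 353 in OE SP and 4.49 to 7.13 in the double positives, a difference of 4.80 (SE 0.24, limma adjusted p = 2.78e-06). Others lay inside Dnah7b, Mctp2 and Slc39a10, the last pair with differences of 4.18 and 4.16, and 3 lay beyond 100 kb of any protein-coding gene. The largest fall, 14486 bp from Gm6569 (chr15:73854394-73854794), went from 547 and 511 to 9.48 and 39.4 (difference -4.39, SE 0.36, limma adjusted p = 6.48e-06; -3.59 without OE SP replicate 1 and -5.20 without replicate 2). A region inside Hunk, a kinase gene (chr16:90410830-90411230), fell from 411 and 390 to 8.75 and 43.4, a difference of -3.97 that was -3.07 and -4.88 without either OE SP library.

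The strongest losses were deeper in one OE SP library than in the other. In the 594 regions lower by at least 8-fold, the median OE SP value was 4.08% of the WT SP mean in replicate 1 and 15.7% in replicate 2, and replicate 2 was the higher in 92.9% of them. Over regions not called, the medians were 89.1% and 100.1%, with replicate 2 higher in 63.8%. Among regions called higher the medians were 274% and 321%. What part the difference between these libraries has in the calls was not tested.

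Genes with several regions commonly had calls in both directions. Of 9454 genes with at least 5 tested regions, 6436 (68.1%) had both higher and lower calls, 782 only higher, 1999 only lower and 237 none. The most higher calls were at Pde4d, a cAMP phosphodiesterase gene, with 31 of 99 higher and 21 lower, followed by Wwox with 30 of 111 higher and 28 lower and St6galnac3 and Trappc9 with 26 each. The most lower calls were at Auts2 with 84 of 140 lower and 14 higher, Tenm4, a teneurin, with 67 of 114 and 6, Slit3, a guidance ligand, with 58 of 113 and 9, and Gse1 with 50 of 98 and 8. These are also genes with many regions, so the counts are read beside their totals.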

How the data were processed

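The deposited table gives 1 value per region and library for 168842 regions of build mm10. Its values are a signal, the authors' normalized reads per region, and 100% were whole multiples of a library step at a tolerance of 0.01 reads. DiffBind 3.14.1, MACS2 and Bowtie2 stand in the submitters' processing notes without their roles; scaling, Tn5 shift, duplicate handling and pooling for peak calls are not given in sources used here. The main test was limma 3.58.1 (R 4.3.3) on log2(value + 5), 1 fit of 4 group means over 8 libraries with an empirical Bayes trend and 4 residual degrees of freedom, two-sided. edgeR 4.0.16 and DESeq2 1.42.0 on the recovered reads were among 15 alternatives. The scripts were tested on simulated data. Genes are the nearest RefSeq protein-coding span within 100 kb, which gave a gene to 150743 regions (89.3%); promoters are RefSeq GRCm38.p6, and 17491 genes have one in the table. Named regions are all at Etv2, the 8 largest rises and falls without overlap, up to 4 genes per list by lowest adjusted p, the 8 genes with most calls each way and the largest changes at Kdr and Pdgfra; a part of these is printed, and promoters were added after values were seen. Members and lists were chosen with earlier results of these data known. Replicate numbers were not treated as pairs, as the labels do not say whether they are. The deviations of WT SP and OE SP replicates did not correlate (-0.0005), which cannot show whether libraries of the same number shared a culture. Reads are not independent molecules, so depth covers counting error only.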

Additional observations from a re-analysis of the deposited data

How the results depend on the processing

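Both counts of calls and the share of calls that are higher (34.2%) were recomputed under 15 alternatives. Beyond the range of 1.5 times, higher calls numbered 11880 with a filter at a mean of 30, where fewer regions were tested, and lower calls 28778 with DESeq2. The share higher was 47.9% with median-of-ratios rescaling, 47.1% with quantile normalization, 49.9% with edgeR (41125 higher, 41344 lower) and 48.7% with DESeq2 (27289 higher); these differ in scaling from the deposited values. Leaving out 1 library gave 20539 to 34544 higher calls, 37651 to 66797 lower calls and a share of 29.3% to 39.0%. Those 4 fits take no spread from the group left with 1 library, so their counts are not like the others. With a replicate block there were 27544 higher and 52655 lower calls and a share of 34.3%, and no named region changed its call. The labels do not say whether replicate numbers pair the samples.

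The median of all regions turned from -0.22 to 0.017 with edgeR and with DESeq2. List medians relative to all regions that changed sign lay near 0. Leaving out 1 library gave -0.070 to 0.012 for arterial Notch (0.012 without WT SP replicate 1), -0.062 to 0.14 for blood (-0.062 without OE SP replicate 2, -0.018 without WT SP replicate 2), -0.042 to 0.16 for pluripotency (-0.042 without OE SP replicate 1, -0.0036 without WT SP replicate 2), -0.10 to 0.022 for neuroectoderm (0.022 without OE SP replicate 2) and -0.024 to 0.13 for housekeeping (-0.024 without OE SP replicate 2). The neuroectoderm median was 0.0044 with the filter at 30, and that of pluripotency -0.097 within 10 kb of a gene. The Etv2 region at 30634628 ranged from -0.18 without OE SP replicate 2 to 0.41 without OE SP replicate 1. The cause was not tested. Of 101 called regions among the 104 named, 87 stayed called under each alternative that tested them and 14 were lost under at least 1, all of them promoters of list genes. Apart from those of Etv2 and the promoters, named regions were picked for low p or large change, so they do not describe other calls. Of all higher calls, 100% stayed higher with edgeR and 92.0% with DESeq2. Of all lower calls, 77.2% and 53.8% stayed lower. Both methods moved the median of all regions upward, from -0.22 to 0.017, which favours higher calls. These shares therefore do not compare the stability of the directions. Depth, at 27 to 41 reads in the median region, limits the precision of its difference.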
